A study of Mus musculus with 11 samples.

Results

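The regions described here are stretches of open chromatin at gene promoters that were detected in midbrain dopaminergic (DA) neurons and not in hindbrain serotonergic (5-HT) neurons of mouse embryos. They were chosen by their scores in ATAC-seq, with a score above 0, the mark of a peak, in all 3 DA libraries and a score of 0 in both 5-HT libraries. The centre of each region had to lie between 1 kb upstream and 100 bp downstream of a transcription start site (TSS) in the GENCODE annotation of the mm9 genome. This selection gave 702 DA-only promoter regions among the 131942 regions of the series, or 5.53% of the 12692 regions centred in a promoter. Since the presence of a peak chose them, the scores below describe these regions and are no test of DA against 5-HT neurons, and regions are not replicates of a cell type.

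DA neurons were sorted as GFP+ cells from the ventral mesencephalon of TH-GFP embryos, a line kept on a C57BL/6J background, and 5-HT neurons as YFP+ cells from hindbrain rhombomeres of embryos with a Cre driver and a ROSA YFP reporter. All embryos were taken at embryonic day 14.5 (E14.5) from Swiss wild-type mothers mated with transgenic fathers. There were 3 DA and 2 5-HT libraries, and the number of reads behind each library is unknown. In TH-GFP embryos a rat Th promoter drives the reporter, so the DA cells carried this promoter besides their own and the 5-HT cells did not. The Cre driver of the YFP line is active in the progenitors of several kinds of neuron, so it does not by itself restrict the label to 5-HT neurons.

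A promoter is the stretch of DNA at which RNA polymerase and its partners assemble, and its nucleosomes are usually displaced when the gene can be transcribed. In ATAC-seq, a transposase cuts such open DNA and leaves a peak. Many promoters of vertebrates lie in CpG islands, which are rich in G, C and the dinucleotide CpG and tend to be open in most cell types, whereas promoters poor in CpG are more often open in particular cell types. Many genes have several promoters, and a transcript that starts inside a gene has a promoter of its own. Midbrain DA neurons are known for the enzymes that turn tyrosine into dopamine, tyrosine hydroxylase (Th) and aromatic L-amino acid decarboxylase (Ddc), and for transcription factors such as Lmx1a, Otx2, Nr4a2 and Pitx3.

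The selection was set beside lists of genes known to mark these and other cells. The lists were written with earlier results of these data known, so they are no independent check. Of 44 genes of midbrain DA identity, 5 (11.4%) had a DA-only promoter region, compared with 566 of 22380 protein-coding genes (2.53%). They were Th, Ddc, Lmx1a, Otx2 and Aldh1a1, the gene of a retinaldehyde dehydrogenase found in a subset of DA neurons. A further 8 DA genes had a promoter region in the 3 DA libraries and in a single 5-HT library, among them the dopamine transporter Slc6a3, which scored 6.92, 4.80 and 4.46 in DA replicates 1, 2 and 3 and 3.43 in 5-HT replicate 1. The vesicular transporter Slc18a2, which 5-HT neurons use as well, scored 4.71, 6.85 and 4.78 in DA cells and 3.08 in 5-HT replicate 2. Another 9, including Nr4a2, En1 and Foxa1, had a promoter region in all 5 libraries. Chrna6, Ebf3, Pitx3 and Sox6 had regions centred in a promoter, but none in all 3 DA libraries. Of the 22 DA identity genes with a promoter region in the 3 DA libraries, 5 (22.7%) were thus DA-only. Of the 9278 protein-coding genes with such a region, 6.10% were DA-only. The share was 25.0% of 8 GABAergic, 40.0% of 5 glutamatergic and motor neuron, and 40.0% of 5 endothelial and pericyte genes. It was 12.5% of 8 genes of 5-HT identity and 0% of 16 radial glial and progenitor genes. None of 3 astrocyte and oligodendrocyte genes, nor the 1 microglial and blood cell gene, was DA-only. Of the 44, 18 had no region centred in a promoter. By overlap off the centre, Foxa2, Drd2 and Shh, which are among these 18, and Pitx3 had a promoter region in all 5 libraries. Without 5-HT replicate 1, 12 of the 44 would have counted as DA-only, beside 1907 of the 22380 protein-coding genes.

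Of 18 genes of 5-HT identity, only Maob had a DA-only promoter region, which scored 3.72, 3.31 and 3.86. Maob encodes a monoamine oxidase. None of the 18 had a promoter region in both 5-HT libraries and in no DA library, a pattern that 15 promoter-centred regions showed in all. Fev, a transcription factor of 5-HT neurons, had a region in 5-HT replicate 1 alone, with a score of 3.37. The region centred in a promoter of Tph2, the enzyme of serotonin synthesis in neurons, scored 3.80 in DA replicate 2, 3.47 in DA replicate 3 and 0 elsewhere, while another region that overlapped its promoter was present in all 5 libraries. The promoter of the serotonin transporter Slc6a4 was overlapped, off its centre, by a DA-only region that scored 4.80, 6.56 and 3.76. With so few promoter regions of the opposite pattern in all, its absence from 18 genes says little about the 5-HT libraries.

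Some lists of markers of other cells had DA-only promoter regions at a share like that of the DA list, and others had none. None of 8 noradrenergic, 25 radial glial and progenitor, 17 astrocyte and oligodendrocyte, and 22 microglial and blood cell genes had one. Over all protein-coding genes the share was 2.53%. Of the 25 progenitor genes, 16 had a promoter region in the 3 DA libraries and 12 in all 5 libraries. Only 3 astrocyte and oligodendrocyte, 1 microglial and blood cell and 0 noradrenergic genes had a region in the 3 DA libraries, so their lists could hardly give any. Counting any overlap, 1 noradrenergic gene had a DA-only promoter region. Of 26 endothelial and pericyte genes, Abcc9 (4.39, 3.80 and 4.15) and Col1a1 (4.67, 6.84 and 4.52) had one (7.69%). The GABAergic list of 18 genes gave Slc32a1, the vesicular GABA transporter, and Dlx6 (11.1%), with scores of 5.07, 4.76 and 3.92 and of 5.00, 6.73 and 5.92. The list of 15 glutamatergic and motor neuron genes gave the homeobox genes Barhl2 and Mnx1 (13.3%), with lowest scores of 3.32 and 3.79. The DA identity list, at 11.4%, lay close to the GABAergic list and below the glutamatergic and motor neuron list, and these differences were not tested. These lists gave 2 genes or fewer each, and their part in the DA-only selection was not tested.

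How many regions met the rule depended on single libraries. Without 5-HT replicate 1, 2206 promoter regions were present in the 3 DA libraries and absent from the remaining 5-HT library, and without DA replicate 1 there were 1223. Leaving out DA replicate 2 or 3 or 5-HT replicate 2 gave 751, 845 and 846. The protein-coding genes numbered 1907 without 5-HT replicate 1 and 936 without DA replicate 1. Both 5-HT libraries held fewer peaks than any DA library. The count of DA-only promoter regions thus rested most on 5-HT replicate 1.

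A library left out of the selection gives a readout that the rule did not use. Among promoter regions chosen by their presence in all DA libraries and absence from 5-HT replicate 2, the other 5-HT library had a peak at 1504 of 2206 (68.2%, 95% Wilson interval 66.2 to 70.1%), against 74.8% over all promoter-centred regions and 98.1% of those present in all DA libraries and 5-HT replicate 2. When 5-HT replicate 1 was used for the choice, 5-HT replicate 2 had a peak at 144 of 846 (17.0%, 14.6 to 19.7%), against 61.1% and 83.1%. Absence from the library with fewer peaks thus left most of the regions present in the other 5-HT library, and absence from the library with more peaks did not. On the DA side, DA replicate 1 had a peak at 702 of the 1223 regions chosen without it (57.4%, 54.6 to 60.1%), DA replicate 2 at 93.5% of 751 and DA replicate 3 at 83.1% of 845. Over all promoter-centred regions, the same libraries had a peak at 79.3%, 92.7% and 87.4%. Among regions chosen by the same DA libraries and a peak in both 5-HT libraries, the shares were 99.3%, 100% and 99.9%. Regions chosen as DA-only were thus recovered less than these in each DA library. The intervals cover counting error only.

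DA-only promoter regions had low scores. Their median scores were 4.34, 4.78 and 4.37 in DA replicates 1, 2 and 3, compared with 8.64, 11.1 and 9.27 for the 7371 promoter regions present in all 5 libraries. The 1648 promoter regions present in the 3 DA libraries and 1 5-HT library lay between, with 5.09, 5.93 and 5.12. Within all promoter-centred peaks of a library, the median DA-only region stood at percentile 12.9, 22.2 and 20.4. Its scores were above the library's median promoter peak in all 3 DA libraries for 13 of the 702 regions (1.85%), against 60.3% of the regions in all 5 libraries. DA replicate 1, the DA library with the fewest peaks, gave the lowest percentile for 414 of the 702. The ranking of the 702 regions was shared in part between DA libraries, with Spearman correlations of 0.66, 0.69 and 0.69 over the 3 pairs of libraries, while those over the regions in all 5 libraries were 0.90, 0.92 and 0.90. These correlations are across regions, which are not independent replicates, and the DA-only regions span a narrower range of scores.

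The share of DA-only regions fell as the score rose. Of the 9721 promoter regions present in the 3 DA libraries, 702 were DA-only (7.22%), a share that was 22.7% without 5-HT replicate 1 and 11.7% without DA replicate 1. When these were divided into 10 classes by their lowest DA score, 354 of 973 in the lowest class were DA-only (36.4%), with scores between 3.03 and 3.98. The share was 9.36% in the third class, from 4.74 to 5.47, and 2.67% in the fifth, from 6.25 to 7.06. From 9.29 to 10.8 it was 3 of 972, from 10.8 to 13.5 none, and above 13.5 the region at Lpl alone. When each library was limited to 22879 peaks, the number in 5-HT replicate 2, 55 of the 702 regions were still present in all 3 DA libraries (7.83%), compared with 79.5% of the regions in all 5 libraries. At that number, 117 promoter regions were DA-only by rank, and 62 of these had a lower-scoring peak in a 5-HT library as deposited.

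The values at the edges of the rule show how narrow some of these calls were. Of the DA-only promoter regions, 33 stood at 3.45 in DA replicate 1, the lowest score above 0 that this library holds, among them the region at Cryba2, a lens crystallin gene. The lowest score in DA replicate 2 was 3.08, at Ahrr, and 8 regions had the lowest score of DA replicate 3, 3.03. On the other side, the 1504 promoter regions kept out of the list by a peak in 5-HT replicate 1 alone had a median score of 4.21 there and a lowest score of 3.37, at Npas2. The 144 kept out by 5-HT replicate 2 alone had a median of 3.32 and a lowest score of 2.83, at Trim21. By position, the outermost DA-only region inside the promoter window was centred at -998 bp from a TSS of Rbm46, and the nearest one outside it at -1001 bp from Gm15969. Downstream, the last region inside lay 100 bp from the TSS of a U5 gene, and the first outside 101 bp from that of Gm15401. These narrow margins were not tested.

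By gene class, 561 of the 702 DA-only promoter regions lay at a protein-coding gene (79.9%), 63 at antisense or other long non-coding transcripts (8.97%), 33 at small RNA genes (4.70%), 25 at lincRNAs (3.56%), 17 at pseudogenes (2.42%) and 3 at other loci such as T cell receptor segments. The first 5 classes held 94.8%, 1.28%, 0.787%, 2.67% and 0.461% of the promoter regions in all 5 libraries. Over all promoter-centred regions, 88.8% lay at a protein-coding gene, 3.79% at antisense or other long non-coding transcripts and 2.39% at small RNA genes. Small RNA genes and antisense or other long non-coding transcripts thus made up a larger share of the DA-only regions than of promoter regions in general. The median lowest DA score hardly differed between classes. It was 3.96 at protein-coding genes, 3.98 at lincRNAs and 3.89 at antisense or other long non-coding transcripts. At small RNA genes it was 4.12 and at pseudogenes 4.15. Medians of single libraries differed more, and in DA replicate 2 they were 4.77 at protein-coding genes, 5.21 at lincRNAs and 5.96 at pseudogenes.

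For a minority of the DA-only regions at protein-coding genes, no annotated TSS of a protein-coding transcript was in reach. Whether transcripts start at these regions was not tested, because RNA was not analysed. For 133 of the 561 regions (23.7%), the TSSs in reach were those of transcripts without a coding sequence, such as retained introns, compared with 588 of 6986 (8.42%) among regions in all 5 libraries. Of all 702 regions, 48 lay only at transcripts annotated as retained introns (6.84%, against 1.89%), and 38 at an antisense transcript (5.41%, against 2.09%).

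DA-only promoter regions were narrow and lay farther from the TSS. Their median width was 556 bp, compared with 877 bp for the regions with 1 5-HT library and 1216 bp for those in all 5 libraries. The annotated TSS fell inside the region for 68.8% of them, against 88.7% and 97.9%. The median centre lay at -126 bp from the nearest TSS, against -30.0 bp for the regions in all 5 libraries, and the lower quartile of the DA-only regions at -423 bp. The narrowest at a protein-coding gene, 131 bp wide, was shared by Fancc and the antisense gene Gm16133, and the widest, 2888 bp, lay between Nr2e1 and Ostm1. The widest of all, 3638 bp, lay at the lincRNA Speer7-ps1. TSSs of different genes on both strands were in reach of 4.13% of the DA-only regions and of 15.9% of the regions in all 5 libraries, so bidirectional promoters were uncommon among them.

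Most DA-only promoter regions were poor in CpG. In their central 200 bp, the median GC content was 53.5%, against 63.0% for the regions with 1 5-HT library and 66.0% for those in all 5 libraries. The ratio of observed to expected CpG had a median of 0.355, against 0.715 and 0.849. A window was called CpG-rich at a GC content of at least 50% and a ratio of at least 0.6. By this measure 181 of the 702 DA-only windows were CpG-rich (25.8%), compared with 58.7%, 80.0% and, over all promoter-centred regions, 60.6%. The share rested on 5-HT replicate 1, since without this library it was 49.6%. At protein-coding genes alone the share was 29.2%, against 80.8% for the regions in all 5 libraries, and at antisense and other long non-coding transcripts it was 6.35%.

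CpG-rich and CpG-poor regions were also counted within classes of score. Among promoter regions of the 3 DA libraries in the lowest of 5 classes by score, from 3.03 to 4.74, 375 of 898 CpG-poor regions were DA-only (41.8%) and 140 of 1047 CpG-rich regions (13.4%). In the next class, up to 6.25, the shares were 15.8% and 2.62%, and from 6.25 to 8.10 they were 7.35% and 0.481%. From 8.10 to 10.8, 7 of 375 CpG-poor promoter regions and none of 1569 CpG-rich ones were DA-only, and above 10.8 the region at Lpl alone. These counts were not repeated without 5-HT replicate 1, and the part of the score in the CpG content was not tested. Of the 55 members among the top 22879 peaks of every DA library, 16.4% were CpG-rich, and of all 117 promoter regions DA-only by rank at that number of peaks, 32.5%.

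Short words recognised by known families of transcription factors were searched for in the central 200 bp of each region, on either strand. Words of CpG island promoters were less frequent in the DA-only regions. GGGCGG, the word of SP and KLF factors, occurred in 22.5% of them, in 55.0% of the regions in all 5 libraries and in 43.4% of all promoter-centred windows of the same length. CCGGAAG, an ETS word, occurred in 4.27%, 12.4% and 9.02%, and GCGCATGCG, the word of NRF1, in 0.570%, 1.90% and 1.26%. CCAAT was about as frequent in each, with 22.2%, 23.0% and 21.7%, and the TATA box word TATAAA occurred in 4.84%, 2.50% and 3.93%. Among CpG-poor windows alone, CCAAT occurred in 22.8% of DA-only regions and in 31.1% of the regions in all 5 libraries. For TATAAA these shares were 6.14% and 5.56%.

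Several other words were more frequent in the central windows of DA-only regions, among them words of factors with no particular tie to neurons. The word AAAGGTCA, bound by NR4A orphan receptors such as Nr4a2, occurred in 13 of 702 DA-only windows (1.85%), in 0.285% of the windows in all 5 libraries and in 0.575% of all promoter windows. Among CpG-poor windows alone, it occurred in 11 of 521 DA-only (2.11%) and 7 of 1474 regions in all 5 libraries (0.475%). The FOX word TGTTTAC was found in 4.99% and 1.63% of these CpG-poor windows, and the homeodomain word TAATTA, read by LIM factors such as Lmx1a, in 4.41% and 2.10%. For the PITX and OTX word TAATCC the shares were 7.87% and 4.82%, for the E-box words CAGCTG and CATCTG 26.3% and 15.7% and 17.5% and 10.2%. The core words of CTCF, AGGTGGCAG or AGGGGGCAG, were found in 4.22% and 1.63%. The SOX words ACAAAG or ACAATG were found in 23.0% and 18.4%, the NFI word TTGGCA in 15.2% and 9.84%, the word AGATAA of the GATA family in 8.25% and 5.16% and the RFX word GTTGCCA in 6.53% and 4.14%. The octamer of POU factors, ATGCAAAT, occurred in 8 of 521 and 14 of 1474 windows. The word CCCNNGGG of EBF factors went the other way, with 7.10% and 10.4%, although Ebf1 and Ebf3 are in the DA identity list. In the central 500 bp of CpG-poor regions, the shares were 12.5% and 5.43% for TAATTA, 45.9% and 33.5% for CAGCTG and 6.53% and 3.32% for the CTCF words. Over whole regions, which are narrower in the DA-only list, most of these words were less frequent in CpG-poor DA-only regions. The shares were 12.7% and 15.3% for TAATTA, 50.7% and 58.3% for CAGCTG and 7.49% and 8.82% for the CTCF words. The NR4A word was more frequent there too, with 6.33% and 4.82%. These differences were not tested. A word match is a description of the sequence, not a site of binding.

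The 13 regions with the NR4A word included 2010107E04Rik, whose scores of 7.89, 8.91 and 8.67 were among the highest of the DA-only regions, Insig2, a regulator of sterol synthesis (3.66, 6.71 and 5.87), and the choline transporter-like gene Slc44a1 (4.56, 6.32 and 5.68). The cyclic AMP response element TGACGTCA was in 6 DA-only windows (0.855%), fewer than the 2.09% of regions in all 5 libraries. Its 6 regions were at Th, Dlx6, Fstl4, Uncx, Sult4a1 and Wisp1, with lowest DA scores of 8.45, 5.00, 3.88, 3.70, 3.45 and 3.14. They were named after their values were seen.

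Most genes with a DA-only promoter region had no other region centred in a promoter. Of the 566 protein-coding genes, 330 (58.3%) had none, 140 (24.7%) had one in all 5 libraries, 37 (6.54%) had one in the 3 DA libraries and 1 5-HT library, and 59 (10.4%) had one found in fewer DA libraries. The share with another promoter in all libraries was 15.5% without 5-HT replicate 1 and 13.9% at 22879 peaks per library. It was 29.6% without 5-HT replicate 2 and 34.1% when any overlap with the promoter counted. With promoters from 2 kb upstream to 500 bp downstream it was 36.8%, so it depended on the rule of the centre. The DA-only region lay more than 1000 bp inside the annotated gene for 245 genes (43.3%). Among the 140 genes with a promoter shared by all libraries it did so for 111 (79.3%), beside a promoter of the 3 DA libraries and 1 5-HT library for 28 (75.7%), beside one in fewer DA libraries for 34 (57.6%), and among those with no other promoter region for 72 (21.8%). A DA-only region beside any other promoter region was thus mostly at an internal TSS. In all, 15 genes had 2 or more DA-only promoter regions, among them Cntfr, Sgms1, Aifm3 and Slc2a5.

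A minority of DA-only promoter regions had another DA-only region within 10 kb, and a minority of their genes held a further one. Of the 566 genes, 196 (34.6%) held at least 1 further DA-only region within the gene, against 22.2% of the 7565 genes with a promoter region in all 5 libraries and 4018 of all 22380 protein-coding genes. Their median length was 30.5 kb, against 24.7 kb and 15.4 kb. Counted per Mb of gene, there were 10.9, 7.68 and 8.18 further DA-only regions. Lmx1a held 7, and Kcnip1, which encodes a protein that binds potassium channels, held 7 as well. The nearest other DA-only region lay within 10 kb for 154 of the 702 (21.9%), for 16.7% of the regions with 1 5-HT library and for 11.9% of those in all 5 libraries. Within 50 kb the shares were 57.5%, 55.7% and 48.8%, so the DA-only regions and those with 1 5-HT library differed little at that distance.

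The regions with the highest lowest score among the DA libraries were at genes of many functions. Lpl, the gene of lipoprotein lipase, led with 13.9, 14.8 and 15.8 in DA replicates 1, 2 and 3, at chr8:71414263-71414939. This region lies 10253 bp inside the gene, at the TSS of a transcript without a coding sequence, and by overlap another promoter of Lpl had a region shared with a 5-HT library. Tnfsf15, a cytokine of the TNF family, followed with 9.99, 12.8 and 12.2 at chr4:63405641-63406583, around its only annotated TSS. Tyrp1, known as an enzyme of melanin synthesis, had 9.84, 10.8 and 12.0 at chr4:80479931-80480523. All 3 were above the median promoter peak in each DA library, which was 7.30, 8.27 and 7.19.

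Several of the next genes had another promoter that was open in both cell types. Magohb, of the exon junction complex, scored 11.2, 10.5 and 9.65 at a region centred at -770 bp from an internal TSS, and Lpcat3, an acyltransferase of phospholipids, 9.43, 9.01 and 10.2 at chr6:124652809-124653032, 39978 bp inside the gene. Both genes had another promoter region in all 5 libraries. Fancc, of the Fanconi anaemia pathway of DNA repair, scored 8.27, 11.5 and 8.28 and had a shared promoter too, as did Morf4l2, with 7.71, 8.81 and 7.48, and Ppt2, whose region is shared with Prrt1 and scored 7.36, 7.75 and 8.17.

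No other open promoter was centred at Bid, a death-promoting member of the BCL2 family (8.69, 8.83 and 7.73), at the zinc finger gene Glis2 (9.39, 9.16 and 7.65) or at Tank, a partner of TRAF proteins (7.43, 8.48 and 10.5). These 3 regions lay at internal, non-coding transcripts, 19285, 13914 and 65246 bp inside the genes. By contrast, Th, 2010107E04Rik and Lrrc17, a leucine-rich repeat protein (7.97, 7.88 and 7.30), had theirs at the TSS of a coding transcript. Of the 15 regions with the highest lowest score at protein-coding genes, 8 lay at the TSS of a coding transcript, 5 at a gene with another promoter open in all 5 libraries, and 1, at 2010107E04Rik, had a CpG-rich window.

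Among regions at non-coding genes alone, the antisense gene Gm14097 scored highest, with 8.37, 8.97 and 9.17 at chr2:132523694-132524679, followed by a SNORA17 gene (6.88, 9.41 and 9.19). Gm14014, another long non-coding gene, had 8.53, 6.74 and 10.00. The pseudogene Gm13286 scored 6.69, 10.3 and 9.99, and a SNORA17 gene at chr1:59126935-59128069 scored 6.65, 7.39 and 6.80. SNORA17, a small nucleolar RNA, is annotated in many copies, and none of these 5 regions had a close copy of its central window elsewhere.

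The sequence before the TSS is shown for regions at DA identity genes and for 4 of the 15 top-scoring ones at protein-coding genes, because they carry the contrast between CpG-poor and CpG-rich members. Each shows the 200 bases upstream of the TSS in mm9, in the direction of transcription, and none of these bases belongs to an annotated exon. The windows are chr7:150085920-150086119 on the minus strand for Th, chr19:20676251-20676450 on the plus strand for Aldh1a1, chr1:169619489-169619688 on the plus strand for Lmx1a and chr14:49285197-49285396 on the minus strand for Otx2. Capitals mark the words, searched on both strands, which can overlap. They are the AP-1 word TGANTCA and TGACGTCA in Th, CCAAT, ATGCAAAT and the word AGATAA of zinc finger factors of the GATA family in Aldh1a1, the EBF word CCCNNGGG and GGGCGG in Lmx1a, and TAATTA and the NFI word TTGGCA in Otx2. In all promoter-centred windows of 200 bp, TGANTCA occurred in 3.08%, AGATAA in 3.67%, CCCNNGGG in 13.1% and TTGGCA in 7.78%.
Th: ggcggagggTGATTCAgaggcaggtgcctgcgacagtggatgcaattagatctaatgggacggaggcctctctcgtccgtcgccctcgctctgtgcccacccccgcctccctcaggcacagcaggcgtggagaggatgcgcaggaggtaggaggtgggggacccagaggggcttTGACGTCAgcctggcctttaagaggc
Aldh1a1: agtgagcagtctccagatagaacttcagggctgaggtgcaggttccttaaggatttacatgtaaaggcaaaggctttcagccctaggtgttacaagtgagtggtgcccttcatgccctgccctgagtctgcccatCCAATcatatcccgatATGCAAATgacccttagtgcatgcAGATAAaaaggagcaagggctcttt
Lmx1a: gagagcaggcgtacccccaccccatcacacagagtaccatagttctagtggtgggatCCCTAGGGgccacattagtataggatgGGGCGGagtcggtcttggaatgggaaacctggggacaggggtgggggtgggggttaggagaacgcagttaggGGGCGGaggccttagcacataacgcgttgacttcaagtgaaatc
Otx2: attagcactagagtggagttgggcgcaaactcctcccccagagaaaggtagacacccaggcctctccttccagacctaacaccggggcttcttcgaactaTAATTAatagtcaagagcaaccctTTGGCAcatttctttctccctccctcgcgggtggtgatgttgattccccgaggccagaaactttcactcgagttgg

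The windows of 4 top-scoring regions, which were chosen after their values were seen, are chr8:71414443-71414642 on the plus strand for Lpl, chr4:63406148-63406347 on the minus strand for Tnfsf15, chr5:21049145-21049344 on the plus strand for Lrrc17 and chr12:113205189-113205388 on the minus strand for 2010107E04Rik. Capitals mark CAGCTG and AGATAA in Lpl, the latter on the other strand, the POU6F1 word TAATGA on the other strand in Tnfsf15, the TATA box word TATAAA with the words CCAAT and CAGCTG in Lrrc17, and TAATCC in 2010107E04Rik. TAATGA occurred in 3.67% of all promoter windows, CAGCTG in 14.0% and TAATCC in 3.27%. The first 3 hold few CpG dinucleotides, and 2010107E04Rik holds many.
Lpl: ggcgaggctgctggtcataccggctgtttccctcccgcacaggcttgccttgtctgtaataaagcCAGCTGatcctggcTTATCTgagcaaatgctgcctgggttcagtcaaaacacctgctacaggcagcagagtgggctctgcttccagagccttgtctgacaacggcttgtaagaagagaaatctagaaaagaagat
Tnfsf15: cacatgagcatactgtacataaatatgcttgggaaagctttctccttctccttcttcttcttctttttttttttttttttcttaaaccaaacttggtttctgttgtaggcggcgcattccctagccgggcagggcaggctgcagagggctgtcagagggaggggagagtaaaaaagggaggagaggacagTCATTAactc
Lrrc17: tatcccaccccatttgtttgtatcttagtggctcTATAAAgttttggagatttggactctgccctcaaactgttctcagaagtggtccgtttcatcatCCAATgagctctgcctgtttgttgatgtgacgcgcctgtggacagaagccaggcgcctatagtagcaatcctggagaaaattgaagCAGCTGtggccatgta
2010107E04Rik: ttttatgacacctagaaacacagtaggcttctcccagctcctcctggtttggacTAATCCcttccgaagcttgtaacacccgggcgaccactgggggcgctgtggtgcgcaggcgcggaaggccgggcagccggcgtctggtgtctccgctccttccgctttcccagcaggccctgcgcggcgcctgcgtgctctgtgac

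In the DA identity list, Th had the highest scores (9.91, 10.6 and 8.45). Ddc, the next enzyme of dopamine synthesis, had 5.17, 4.07 and 4.21 at chr11:11736323-11737174, at a transcript without a coding sequence that starts 61764 bp inside the gene. Aldh1a1 had 4.32, 4.86 and 5.90 at chr19:20675926-20676806, around its only annotated TSS. Otx2, a homeobox gene that patterns the midbrain, had 3.63, 3.53 and 3.68 at chr14:49284492-49286676, close to the lowest scores that the libraries hold, and a promoter in the 3 DA libraries and 1 5-HT library besides. Lmx1a had a lowest score of 4.09. Th alone of the 5 remained among the top 22879 peaks of every DA library. The part of the reporter's Th promoter in the peak at Th was not tested.

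The lists and families below are given beside the 566 of 22380 protein-coding genes (2.53%) with a DA-only promoter region, and none was tested against it. Retinoid genes gave 4 of 20 (20.0%), compared with 6 that had a promoter region in all 5 libraries. Besides Aldh1a1 they were Rdh5, a retinol dehydrogenase (3.45, 3.51 and 4.11), and the retinoic acid receptors Rara (4.50, 4.05 and 3.64) and Rarg (4.50, 5.35 and 4.92). Rara and Rdh5 had another promoter open in all 5 libraries, and the regions of Rara and Rarg lay 32594 and 11017 bp inside the genes.

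The lists of signalling molecules gave 5 of 61 genes of Sonic hedgehog and Wnt signalling (8.20%) and 7 of 80 of axon guidance (8.75%). In the first, the ligand Wnt9b (4.11, 3.33 and 3.13), the secreted proteins Dkk3 (3.89, 3.18 and 3.04) and Rspo4 (4.04, 3.46 and 3.71) and the transcription factors Lef1 (4.21, 4.23 and 4.58) and Tcf7 (3.63, 3.83 and 3.30) all had low scores. Cntfr, the receptor of ciliary neurotrophic factor, reached 8.24, 5.73 and 5.57, in a region with 3 close copies elsewhere in the genome.

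In the axon guidance list, the region at Sema3a, a secreted repellent, scored highest, with 6.92, 6.44 and 7.72 at chr5:13125202-13126138. Sema3g followed with 6.41, 5.87 and 5.55, Sema4f with 5.76, 6.25 and 5.10 and Sema4a with 5.08, 6.30 and 4.60. The others were Slit2, the ligand of Robo receptors (3.54, 4.42 and 4.14), the semaphorin receptor Plxnd1 (4.60, 4.02 and 3.34) and the ephrin Efnb1 (3.71, 3.74 and 3.11). Slit2 and Efnb1 also had a promoter open in all 5 libraries, and their DA-only regions lay 198949 and 2001 bp inside the genes. In this list 27 of 80 genes had a promoter region in all 5 libraries.

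Of 84 genes of transmitter receptors, 5 had a DA-only promoter region (5.95%). Gabbr1, a subunit of the GABA-B receptor, scored 6.90, 7.78 and 7.02, at an internal transcript beside a promoter open in all 5 libraries. The glycine receptor genes Glra1 (4.84, 6.99 and 5.16) and Glra2 (4.52, 5.44 and 4.50), the glutamate receptor gene Gria3 (3.68, 3.34 and 3.13) and the nicotinic receptor gene Chrnb4 (3.56, 3.53 and 3.09) scored lower. Of 40 nuclear receptors, 3 had one (7.50%), namely the oestrogen receptor Esr2 (7.00, 8.10 and 8.03), Nr4a3 (4.43, 4.03 and 4.01) and Nr2e1 (3.46, 3.62 and 3.30), while 21 had a promoter region in all 5 libraries. Lpl was the only one of 24 lipid-handling genes.

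Larger gene families were described by counts beside the same 2.53% of all protein-coding genes. Of 336 solute carriers, 14 had a DA-only promoter region (4.17%), with the highest scores at Slc45a4 (7.22, 7.65 and 8.00), and of 150 ion channel genes 6 (4.00%), with the highest at Clcn7 (5.99, 8.37 and 5.92). None of 371 Zfp zinc finger genes had one, although 188 of them had a promoter region in all 5 libraries. There were also none among 80 genes of cytosolic ribosomal proteins, 67 of histones, 43 Fox, 40 Hox, 24 protocadherin and 19 Sox genes, of which 60, 36, 13, 1, 1 and 4 had a promoter region in all 5 libraries. Counting any overlap with the promoter, 3 Zfp genes, 1 Fox gene and 1 Sox gene had a DA-only region, beside 798 of all 22380 protein-coding genes. By the centre, Olfr370 among 1113 olfactory receptor genes had a DA-only region, and of 322 vomeronasal receptor genes none did. Cytochromes P450 gave 1 of 96 (1.04%), Cyp1a1, and keratins with keratin-associated proteins 1 of 100 (1.00%), Krtap24-1.

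Among small RNA genes, 12 miRNA genes had a DA-only region in reach of their annotated start, of which 2, Mir199a-2 and Mir582, matched mature sequences in RefSeq (GRCm38.p6). Mir199a-2 lies in Dnm3os, and its region at chr1:164147587-164148311 scored 3.62, 3.11 and 3.90. The region at Mir582, chr13:110114200-110114688, scored 4.10, 5.99 and 5.04. Both thus had scores at or below the middle of the DA-only regions in at least 1 library. Their mature sequences are shown because they name the product of each locus, with the seed, bases 2 to 8, in capitals, and no seed is shared.
miR-199a-5p: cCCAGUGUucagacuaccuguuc
miR-199a-3p: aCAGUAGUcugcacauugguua
miR-582-5p: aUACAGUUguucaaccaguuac
miR-582-3p: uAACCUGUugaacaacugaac

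Most DA-only promoter regions had a sequence of their own. A copy of the central 200 bp elsewhere in mm9, with at least 95% identity over at least 90% of the window, was found for 24 of the 702 (3.42%), compared with 2.31% of the regions with 1 5-HT library and 1.13% of those in all 5 libraries. They included 3 of the 17 regions at pseudogenes and 16 of the 561 at protein-coding genes, such as Gm5640, Speer4c and Dux. For these, reads from the copies cannot be told apart in the deposited scores. By chromosome, the largest shares were on chromosome 4 (9.69%, against 7.33% of all promoter-centred regions) and chromosome 2 (8.97%, against 9.28%), and 4.42% lay on the X chromosome, against 3.48%.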

How the data were processed

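The authors used Trimmomatic and FastQC on the reads, Bowtie2 for alignment to mm9, Picard against duplicates, MACS2 for peaks and BEDOPS to join close peaks, with versions not given. The deposited score of each region and library, made by the authors, has no named scale, 0 means no peak, and the depth is unknown. A misspelled chromosome name was corrected. Promoters were taken from GENCODE for mm9. Shares in libraries left out of the choice carry 95% Wilson intervals, which cover counting error only, and other shares carry none. The members, 30 gene lists and 23 words were chosen with earlier results of these data known. Named regions were taken from the 15 with the highest lowest DA score at protein-coding genes, the top 5 at non-coding genes, those at listed genes, and others singled out after their values were seen. Repeats could not be counted because the genome is not masked, so copies were searched with BLAST+ 2.17.0, a step added after the data were seen. RNA-seq samples were not analysed. Python 3.11.15, NumPy 2.4.6, SciPy 1.17.1 and pysam 0.24.0 were used, and the code was tested on simulated data.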

Additional observations from a re-analysis of the deposited data

How the results depend on the processing

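No paired analysis was possible because the DA and 5-HT libraries came from embryos of different lines, which the labels do not pair, and no test was made.

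When promoters reached 2 kb upstream and 500 bp downstream, there were 1247 DA-only regions at 990 protein-coding genes, 8.87% of the promoter regions in the 3 DA libraries, of which 20.9% had a CpG-rich window, 36.8% of the genes had another promoter in all libraries and 8 DA identity genes were included. At 22879 peaks in each library, the values were 117 regions, 101 genes, 1.86%, 32.5%, 13.9% and 1. With DA scores above the lower quartile, they were 427 regions, 347 genes, 4.73% and a CpG-rich share of 22.0%. With TSSs of protein-coding genes only, 6.24% were DA-only and 29.2% CpG-rich. Over the whole region 22.4% were CpG-rich, and over the central 500 bp 21.5%. Counting any overlap with the promoter, 34.1% of genes had another promoter in all libraries. The cause of these changes was not tested.

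Leaving out 1 library gave 751 to 2206 regions, 597 to 1907 genes, 7.68 to 22.7% DA-only, 77.7 to 85.4% at protein-coding genes, 24.5 to 49.6% CpG-rich, 15.5 to 29.6% with another promoter in all libraries and 5 to 12 DA identity genes. The CpG-rich share of 49.6% was without 5-HT replicate 1. Counts within 1.5 times the main count, and shares within its 95% Wilson interval, were taken as unmoved, so that a share can move by less than a count. By these limits 44 values were unmoved and 34 moved. Leaving out a library, a wider promoter or any overlap can only add regions, so that the regions listed stay in the list by construction.

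Limits: the list rests on the presence of peaks in 3 and 2 libraries of unknown depth, and low-scoring regions make up most of it. Regions near the detection limit of a library enter or leave it by small changes of score. Cell type, brain region and reporter line divided the libraries in the same way, so their parts cannot be told apart. Reads from the reporter's Th promoter and from Th cannot be told apart in the deposited scores. Annotated starts were not checked against RNA.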
